A study of Mus musculus with 947 samples.

Results

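mmu-miR-192-5p, mmu-miR-194-5p and mmu-miR-215-5p are 3 miRNAs of gut, liver and kidney, and their values were followed across every tissue, age and parabiosis group of a mouse small noncoding RNA atlas. The members were chosen by name and were 3 of the 1076 miRNAs listed for the aging cohort and 3 of the 795 listed for the parabiosis cohort. The aging cohort, named TMS after Tabula Muris Senis, gave 769 libraries of 16 tissues from C57BL/6JN mice, taken at 1 month, at every 3 months from 3 to 24 months, and at 27 months. Both sexes were sampled up to 21 months and only males at 24 and 27 months, with 553 libraries of males, 216 of females and 1 to 6 libraries per tissue and age. Male mice joined surgically, so that each pair shared its circulation, made up the parabiosis cohort of 176 libraries and 6 tissues, with 6 to 8 libraries per tissue and group. Values are reads per 1000000 mapped reads (rpmm). In units of 1000000 mapped reads, depth ran from 2.29 to 167 per aging library (median 20.1) and from 9.20 to 47.6 per parabiosis library (median 20.1).

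Isochronic pairs joined mice of like age, giving the young group IY and the aged group IA. Heterochronic pairs joined a young mouse, group HY, to an aged mouse, group HA. The 8 IY mice were 3 or 4.5 months old and the 7 HY mice were 4 months old, while the 7 HA and 8 IA mice were 19 months old. All HY mice were of a transgenic strain on a C57BL/6 background, and no IY, HA or IA mouse was of that strain. The other groups were C57BL/6J or C57BL/6JN, and the study's sources assign these 2 strains to them differently. Age, partner, transgene and strain therefore cannot be told apart in HA minus HY, nor partner, transgene and strain in HY minus IY. Strain may also differ between the groups of HA minus IA and of IA minus IY. Libraries were made from whole tissue, so fewer cells of a type and less RNA per cell cannot be told apart in any value below. The small intestine was sampled at the duodenum, and only in the aging cohort.

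A miRNA is cut from a precursor hairpin as a 5p or a 3p arm, and the seed near its 5′ end pairs with target messenger RNAs and sets most of its target choice. In the mouse, as in other mammals, the 3 members come from paired gene clusters, each with a miR-194 precursor beside the precursor of miR-192 or of miR-215. The family is known from the epithelium of intestine, liver and kidney, where hepatocyte nuclear factors drive its transcription and where it has been linked to epithelial identity, cell cycle arrest and lipid handling.

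The mature sequences are shown because the seed groups the members and because few bases separate miR-192-5p from miR-215-5p. They are given 5′ to 3′ from RefSeq, with the seed (bases 2 to 8) in capitals.
mmu-miR-192-5p: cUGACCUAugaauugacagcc
mmu-miR-215-5p: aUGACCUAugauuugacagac
mmu-miR-194-5p: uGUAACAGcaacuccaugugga
miR-192-5p and miR-215-5p shared 1 seed, which no other mature mouse miRNA in the RefSeq table had, and were identical at 18 of 21 positions. The 3 differing bases kept the pair apart in full-length reads, although the treatment of reads with mismatches could shift a few reads between them. The seed of miR-194-5p was found in no other mature miRNA.

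On GRCm38.p6, all on the plus strand, mmu-miR-215-5p lay at chr1:185313610-185313630 and mmu-miR-192-5p at chr19:6264857-6264877. mmu-miR-194-5p had a copy in each cluster, at chr1:185313325-185313346 and chr19:6264658-6264679, and its reads cannot be assigned to either. On chromosome 1 the precursors Mir194-1 and Mir215 lay 195 bases apart inside Iars2, on the strand opposite to that gene and outside its exons. Both were also inside the noncoding gene 2010103J01Rik on their own strand, where Mir215 fell within an exon and Mir194-1 did not. On chromosome 19 Mir194-2 and Mir192 lay 115 bases apart with no other annotated gene over them. The 3p arms of the 2 miR-194 precursors differed at 4 of 22 bases and told the clusters apart.
mmu-miR-194-1-3p: cCAGUGGAgcugcuguuacuuc
mmu-miR-194-2-3p: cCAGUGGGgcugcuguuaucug
The first of them stood for the cluster of miR-215 and the second for the cluster of miR-192.

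In the whole series, 10 aging libraries and 5 parabiosis libraries had a miRNA profile closer to another tissue than to their own label. The parabiosis libraries of this kind were all mesenteric adipose tissue (MAT) nearest to gonadal adipose tissue (GAT), and 1 aging skin library of 21 months was nearest to liver. Counts of changes given below were repeated without these libraries. Tissue labels were compared with marker miRNAs. The 2 hepatocyte markers (both arms of miR-122) summed to a median of 110522 rpmm in liver, 26.4 rpmm in kidney and 19.2 rpmm in small intestine. The 6 epithelial markers (miR-200a, b and c, miR-141, miR-429 and miR-31) summed to 27937 rpmm in small intestine, 14800 rpmm in kidney and 1192 rpmm in liver.

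All 3 members were detected in every tissue and passed the filter on low values (at least 1 rpmm in 10% of libraries) in 16 of 16 aging and 6 of 6 parabiosis tissues. miR-215-5p was listed at 0 in 1 brain and 1 pancreas library, where a count of 0 allows up to 0.198 and 0.482 rpmm (3 reads, counting error only). The members are of nearly equal length, so no correction for length was made. Ligation and amplification can favour some miRNA sequences over others, which was not measured here, so ratios between miRNAs are ratios of reads and not of molecules. Levels across tissues are a description and were not tested.

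miR-192-5p and miR-194-5p were high in small intestine, liver and kidney, whereas miR-215-5p was high in small intestine only. miR-192-5p had a median of 50129 rpmm in 50 small intestine libraries (11967 to 99563), 26511 rpmm in 52 liver libraries (15343 to 58979) and 13372 rpmm in 51 kidney libraries (2313 to 31022). Its next tissue was lung at 362 rpmm, 36.95-fold below kidney, and these 2 tissues were the only neighbours in its order whose libraries did not overlap. Median miR-192-5p in the other 12 tissues then fell from 331 rpmm in heart to 114 rpmm in skin.

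miR-194-5p had a median of 15786 rpmm in small intestine (984 to 26790), 2049 rpmm in liver (804 to 4191) and 1208 rpmm in kidney (83.6 to 2816). The order of the 3 tissues was that of miR-192-5p, with a larger step of 7.71-fold from small intestine to liver, against 1.89-fold for miR-192-5p. The ranges of all neighbouring tissues overlapped for miR-194-5p, and liver and kidney overlapped also in the range from the lower to the upper quartile. Below kidney, lung followed at 57.7 rpmm and limb muscle was lowest at 19.5 rpmm.

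miR-215-5p had a median of 42083 rpmm in small intestine (1999 to 85644). The next tissue was MAT at 35.7 rpmm, 1178-fold lower. Liver stood at 17.2 rpmm (3.59 to 102) and kidney was the lowest of the 16 tissues at 8.52 rpmm (0.234 to 59.2), which put small intestine 2448-fold above liver and 4936-fold above kidney. Below small intestine, each tissue in the order of miR-215-5p overlapped its neighbour in this quartile range.

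**Figure D1:**
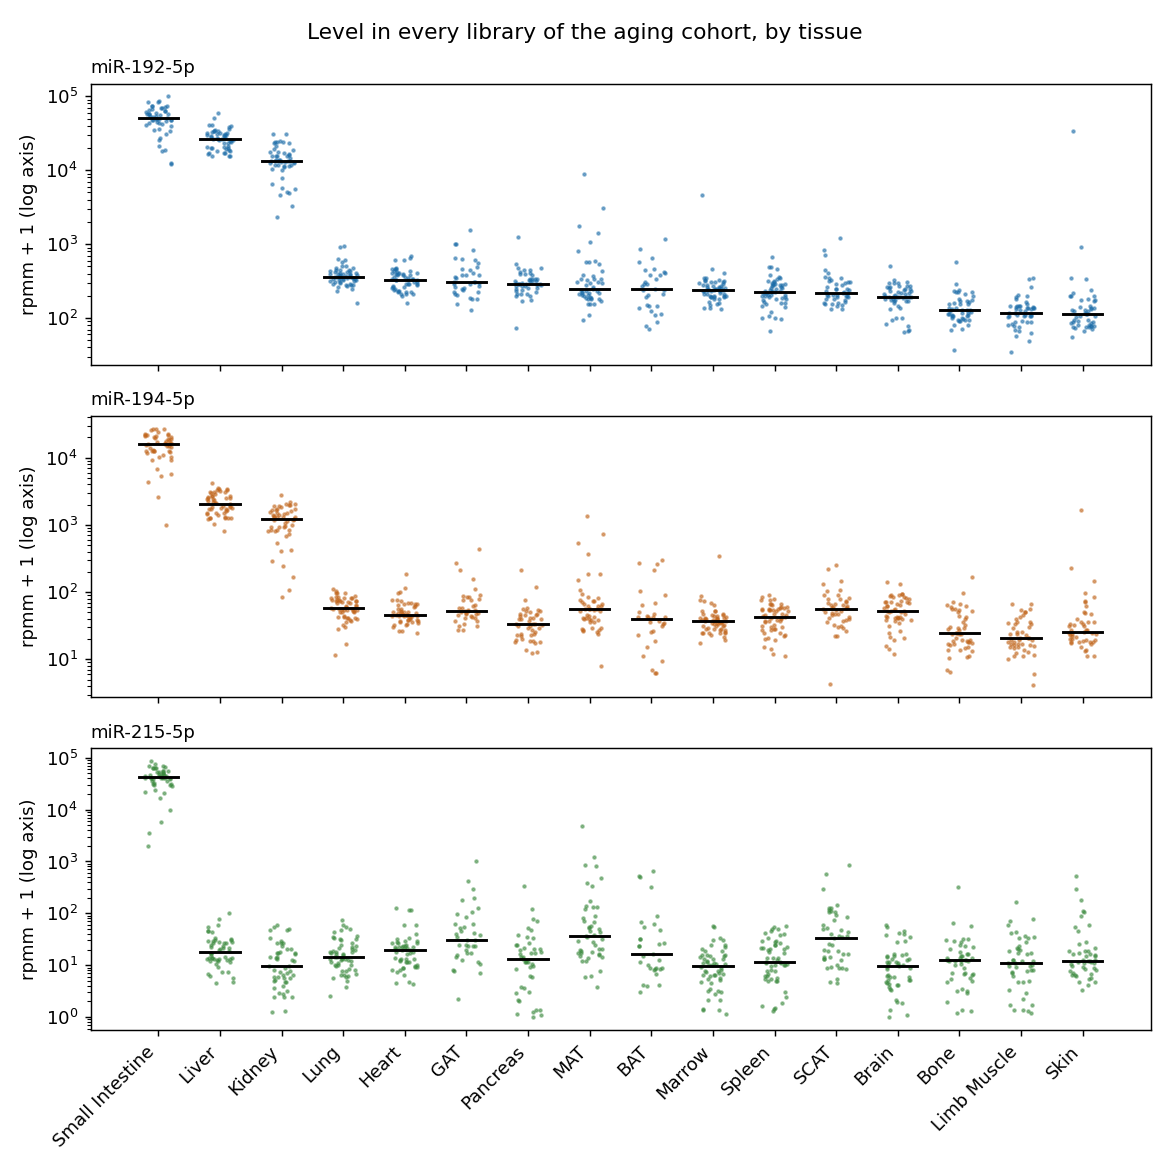
Levels of miR-192-5p, miR-194-5p and miR-215-5p in every aging library, as rpmm + 1 on a log axis, for each of the 16 tissues; points are libraries and black lines are medians. Small intestine, liver and kidney stand above the other tissues for miR-192-5p (medians 50129, 26511 and 13372 rpmm) and miR-194-5p, and small intestine alone for miR-215-5p (42083 rpmm).

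All 3 members were among the most abundant miRNAs of small intestine, and miR-192-5p also among those of liver and kidney. In small intestine, the median level of miR-192-5p ranked 2 of 1076 miRNAs with 13.5% of the miRNA rpmm, miR-215-5p ranked 3 with 11.3% and miR-194-5p ranked 5 with 3.83%. In liver, miR-192-5p ranked 2 with 8.57%, while miR-194-5p ranked 28 and miR-215-5p 186. In kidney, miR-192-5p ranked 8 with 3.83%, miR-194-5p ranked 49 and miR-215-5p 278.

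The ratio of miR-192-5p to miR-215-5p within a library separated small intestine from liver and kidney. Its median was 1.24 in small intestine (0.466 to 9.11), 1381 in liver (381 to 9347) and 1491 in kidney (107 to 41027). Elsewhere it lay between these levels, for example 31.2 in marrow, 7.76 in skin (0.615 to 3196) and 6.92 in MAT (0.648 to 55.9). miR-194-5p came to 0.160 of the sum of miR-192-5p and miR-215-5p in small intestine, 0.0740 in liver and 0.0886 in kidney.

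The 3p arms of miR-194 gave a second readout of the 2 clusters, which the members themselves do not carry. How much of each 3p arm is kept was not measured, so the shares are of 3p reads and not of cluster output. miR-194-1-3p, from beside miR-215, had a median of 202 rpmm in small intestine (9.61 to 420) and a median of at most 0.184 rpmm in any other tissue. miR-194-2-3p, from beside miR-192, had medians of 15.3 rpmm in small intestine, 7.52 rpmm in liver and 3.11 rpmm in kidney, and tissue medians of at most 0.169 rpmm elsewhere. As a share of both 3p arms within a library, miR-194-1-3p made up 93.0% in small intestine (55.9 to 95.6%, median of 4032 reads), 0.746% in liver (0 to 6.02%, 116 reads) and 2.20% in kidney (0 to 44.4%, 58 reads). The other tissues held 1 to 7 such reads per library at the median, too few for a share. The kidney range thus rests on few reads. In small intestine the share of 93.0% stood beside a median miR-192-5p to miR-215-5p ratio of 1.24, so the 2 readouts differed there.

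The 3p arms of miR-215 and miR-192 were high in the same tissues as their 5p partners. miR-215-3p had a median of 3126 rpmm in small intestine (143 to 7177) and tissue medians of at most 2.23 rpmm elsewhere, although a single MAT library held 167 rpmm. miR-192-3p had medians of 367 rpmm in small intestine, 233 rpmm in liver and 104 rpmm in kidney, and tissue medians of at most 3.13 rpmm elsewhere, with 263 rpmm in a single skin library. In libraries with reads of both arms, the 5p arm exceeded the 3p arm in all 16 tissues at the median, 92.5- to 161-fold for miR-192 and 12.6- to 20.1-fold for miR-215.

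**Figure D2:**
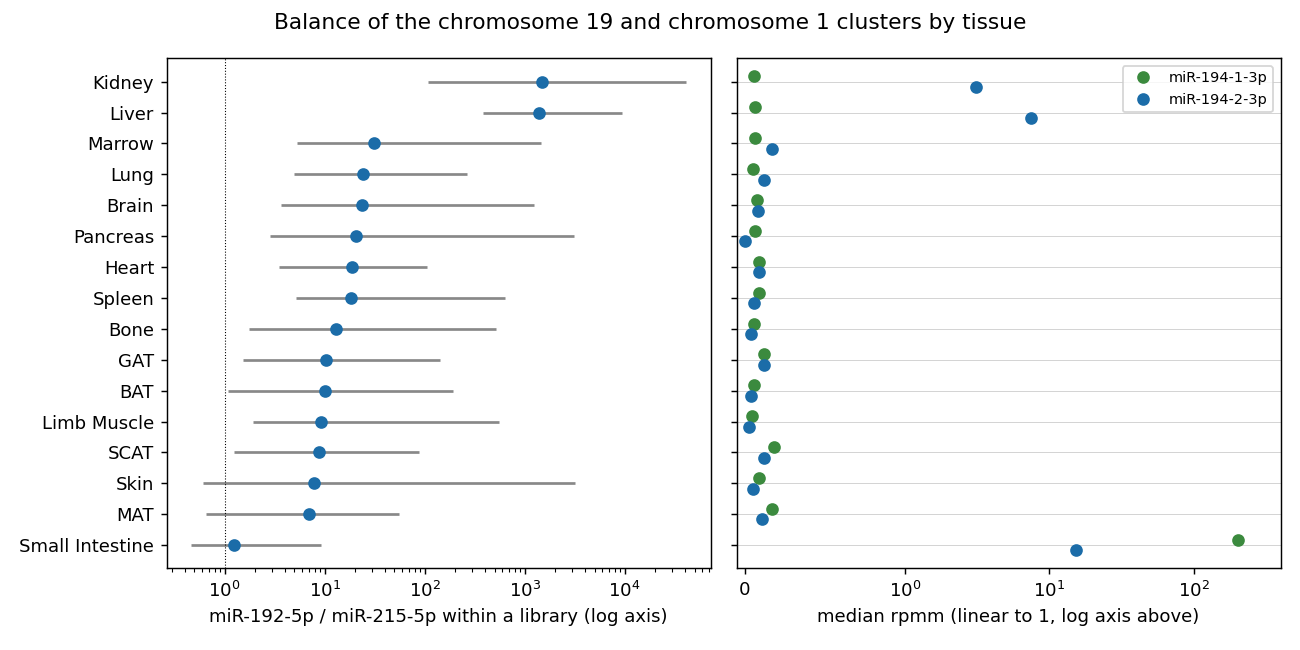
Reads of the 2 clusters by tissue. Left, ratio of miR-192-5p to miR-215-5p within a library on a log axis (dot, median; line, lowest to highest); right, median levels in rpmm of miR-194-1-3p (cluster of miR-215) and miR-194-2-3p (cluster of miR-192), linear up to 1 and log above. Small intestine has the lowest ratio (1.24) and is the only tissue with miR-194-1-3p far above 1 rpmm (202), while liver and kidney have the highest ratios (1381 and 1491).

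Over the 16 tissue medians, miR-192-5p was most like miR-194-5p (Pearson r = 0.98 on log2 levels) and less like miR-215-5p (r = 0.59). Among the 480 miRNAs compared, those outside the family closest to miR-192-5p were miR-3105-5p (r = 0.88), miR-12206-5p (r = 0.84), miR-31-5p (r = 0.69), miR-31-3p (r = 0.68) and miR-1968-5p (r = 0.65). miR-3105-5p and miR-12206-5p were low, with highest tissue medians of 11.6 rpmm in kidney and 24.1 rpmm in liver. miR-31-5p, an epithelial miRNA, had medians of 4786 rpmm in small intestine, 906 rpmm in liver and 219 rpmm in kidney, but 630 rpmm in lung. For miR-194-5p the first 4 were the same (r = 0.82, 0.80, 0.72 and 0.71), followed by miR-429-5p (r = 0.65). Closest to miR-215-5p were miR-200c-5p (r = 0.65), miR-429-5p (r = 0.55), miR-147-3p (r = 0.54), miR-31-5p (r = 0.52) and miR-31-3p (r = 0.50). These likenesses rest on 16 tissues that share a scale and are a description.

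The low level of miR-215-5p outside small intestine moved with the libraries that shared a sequencing pool. Of the 769 libraries, 757 carried a pool code in the deposited annotation, in 53 pools with a median of 15 libraries. Outside small intestine, miR-215-5p had a median of 6.40 rpmm in the 146 libraries of pools with no small intestine library, 14.1 rpmm in the 500 libraries of pools with 1 and 28.2 rpmm in the 62 libraries of pools with 2 or 3. Within tissues, its median was higher in pools with 1 small intestine library than in pools with none in 14 of 15 tissues (median ratio 2.67, from 0.877 to 44.4). With 2 or more such libraries it was higher in 13 of 13 tissues that could be compared (median ratio 7.62).

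miR-194-5p had a smaller step, with a higher median in 13 of 15 tissues with 1 small intestine library in the pool (median ratio 1.32) and in 12 of 13 with 2 or more (median ratio 1.58). miR-192-5p was higher in 7 of 15 with 1 (median ratio 0.987) and in 10 of 13 with 2 or more (median ratio 1.21). miR-215-3p was higher in 14 of 15 tissues with 1 (median ratio 2.51). Pools without a small intestine library still had median miR-215-5p levels from 1.26 to 46.04 rpmm. The part of the shared pool in these levels was not tested. In the parabiosis cohort, which held no small intestine library and was normalized in its own table, median miR-215-5p was 0.958 rpmm in kidney, 1.51 rpmm in limb muscle, 4.42 rpmm in liver, 8.54 rpmm in heart, 13.6 rpmm in GAT and 84.4 rpmm in MAT.

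**Figure D3:**
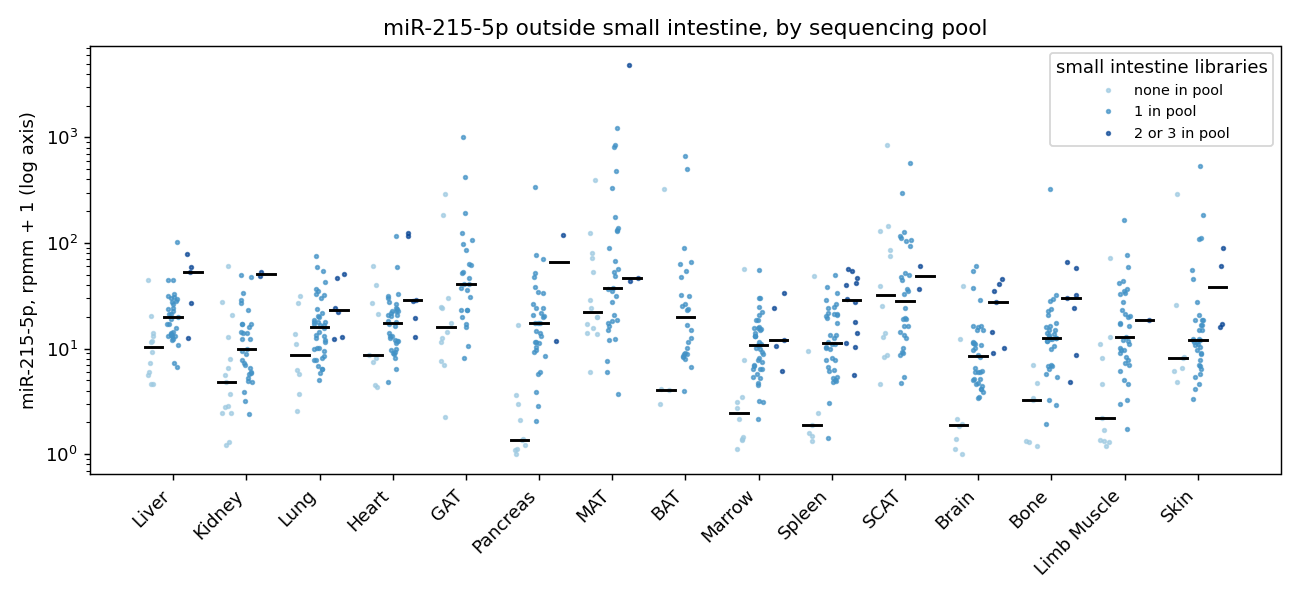
miR-215-5p outside small intestine, as rpmm + 1 on a log axis, by tissue and by the number of small intestine libraries in the same sequencing pool (none, 1, or 2 and more); points are aging libraries and lines are medians. Over the 15 tissues the medians rise from 6.40 to 14.1 to 28.2 rpmm with that number.

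Single libraries outside the 3 home tissues held high levels of all members. A MAT library of 6 months had 3113 rpmm of miR-192-5p, 1342 rpmm of miR-194-5p and 4806 rpmm of miR-215-5p, a miR-192-5p to miR-215-5p ratio of 0.648, and 2612 rpmm of the epithelial markers against a MAT median of 164 rpmm. A GAT library of 27 months had 1540, 431 and 1003 rpmm of miR-192-5p, miR-194-5p and miR-215-5p, beside 1412 rpmm of the epithelial markers (GAT median 142). The MAT library came from a pool with 2 or more small intestine libraries and the GAT library from a pool with 1. The part of the pool in these levels was not tested. The ratio in the MAT library lay within the range of small intestine and far below those of liver and kidney. The medians of all MAT and all skin libraries (6.92 and 7.76) did so too, so the ratio alone does not set this library apart. Another MAT library held the highest miR-192-5p of that tissue, 8856 rpmm.

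Other libraries were high in miR-192-5p and miR-194-5p with little miR-215-5p. A marrow library of 15 months had 4677 rpmm of miR-192-5p, 347 rpmm of miR-194-5p, 6.73 rpmm of miR-215-5p and 22311 rpmm of the hepatocyte miR-122-5p, against a marrow median of 14.3 rpmm for the latter. The skin library nearest to liver had 33996 rpmm of miR-192-5p and 1652 rpmm of miR-194-5p. The part of material from other tissue in these libraries was not tested.

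Whether the members changed over the lifespan was asked first by Spearman correlation with age in each tissue, with a call at an absolute rho above 0.5. None of the 48 pairs of a member and a tissue was called, against a background of 8.06% of all miRNA and tissue pairs (713 of 8849). By permutation of ages (100000 shuffles), 5 of the 48 had an unadjusted p under 0.05 and 1 an adjusted p under 0.05. The 48 rho values ran from -0.28 to 0.43, 34 of them positive. In the home tissues, rho was -0.02 for miR-192-5p, 0.02 for miR-194-5p and 0.11 for miR-215-5p in small intestine, 0.21, 0.17 and 0.30 in liver, and 0.11, 0.27 and 0.21 in kidney.

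By Spearman's rho the highest correlation was that of miR-215-5p in limb muscle. Its level there had a median of 6.77 rpmm at 3 months (2.30 to 15.5, n = 6) and 58.6 rpmm at 27 months (19.0 to 75.7, n = 3), without overlap between these 2 ages, but it was 0.708 rpmm at 6 months (0.198 to 16.4, n = 6). Spearman's rho over the 47 limb muscle libraries was 0.43 (permutation p = 0.00296, adjusted over all miRNAs of the tissue 0.0137), and Pearson's r was 0.41 (permutation p = 0.00431, adjusted over the 48 relations 0.103). Leaving out the 2 libraries most distant from the median age gave an r of 0.32. The Spearman coefficient was 0.54 with plate means removed, 0.43 within sets of title numbers, 0.47 with the means of small intestine pool classes removed (an alternative chosen after seeing the data) and 0.52 in the 34 males, but 0.36 scaled to miRNA reads and 0.36 in the 42 libraries without 24 and 27 months. In limb muscle, miR-215-5p had a median of 1.21 rpmm in the 11 libraries of pools without small intestine and 11.8 rpmm in the 35 libraries of pools with 1 such library, and the part of the pool beyond these classes was not tested. By Pearson's r, miR-192-5p in subcutaneous adipose tissue (SCAT) was higher, at 0.44 over 44 libraries (permutation p = 0.00235, adjusted over the 48 relations 0.103) and 0.40 when the 2 libraries most distant in age were left out. Its rho was 0.37 (permutation p = 0.0155, adjusted over all miRNAs of the tissue 0.0539).

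Each age was then compared with 3 months by limma on log2(rpmm + 1), in the 15 tissues with at least 3 libraries at 3 months. Of 384 contrasts of the members (3 members in 128 pairs of a tissue and an age), 1 was called at an adjusted p of 0.05, against a background of 2.65% of all contrasts (1881 of 70862), and 41 had an unadjusted p under 0.05. edgeR on the recovered reads called 3. The fitted log2 differences ran from -2.05 to 2.76, and 250 of 384 were positive.

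The called contrast was miR-215-5p in liver at 15 months, where it was higher than at 3 months. The 6 livers of 3 months had 5.73, 12.1, 13.0, 16.0, 30.5 and 32.1 rpmm of miR-215-5p. The 5 livers of 15 months had 43.8, 52.6, 57.9, 78.2 and 102 rpmm. Every 15-month liver was thus above every 3-month liver. The difference was 1.96 on the log2(rpmm + 1) scale (SE 0.42, limma adjusted p = 0.00636), beside a median difference of 0.35 over all liver miRNAs and a background of 1.6% of liver miRNAs called higher at 15 months (8 of 501).

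The 3-month livers all came from pools with 1 small intestine library, whereas those of 15 months had 0, 3, 2, 3 and 1 in the order of their levels. With the number of small intestine libraries in the pool as a covariate, a fit chosen after seeing the data, the difference was 2.40 (limma adjusted p = 0.000803), and with plate as a covariate it was 1.67 (adjusted p = 0.0167). Scaled to the miRNA reads of each library the difference was 1.58 with a limma adjusted p of 0.0946, so the call was lost there. The other arm, miR-215-3p, moved the same way, from 0.217 to 1.08 rpmm at 3 months to 2.01 to 6.37 rpmm at 15 months (log2 difference 1.47, limma adjusted p = 0.000785). The 8 other ages of liver differed from 3 months by -0.77 to 0.85 in miR-215-5p, and none was called. At 15 against 3 months, the ranges of all 9 marker lists overlapped, with the hepatocyte sum between 82110 and 135541 rpmm at 15 months and between 48045 and 124156 rpmm at 3 months. The epithelial sum was 871 to 1970 rpmm at 15 months and 580 to 1760 rpmm at 3 months, with 5 of 6 markers higher at 15 months. The 4 white blood cell markers (636 to 1788 against 369 to 1055 rpmm), both hepatocyte and both endocrine markers (353 to 977 against 221 to 684 rpmm) were also all higher at 15 months at the median. The part of these markers in the difference was not tested.

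**Figure D4:**
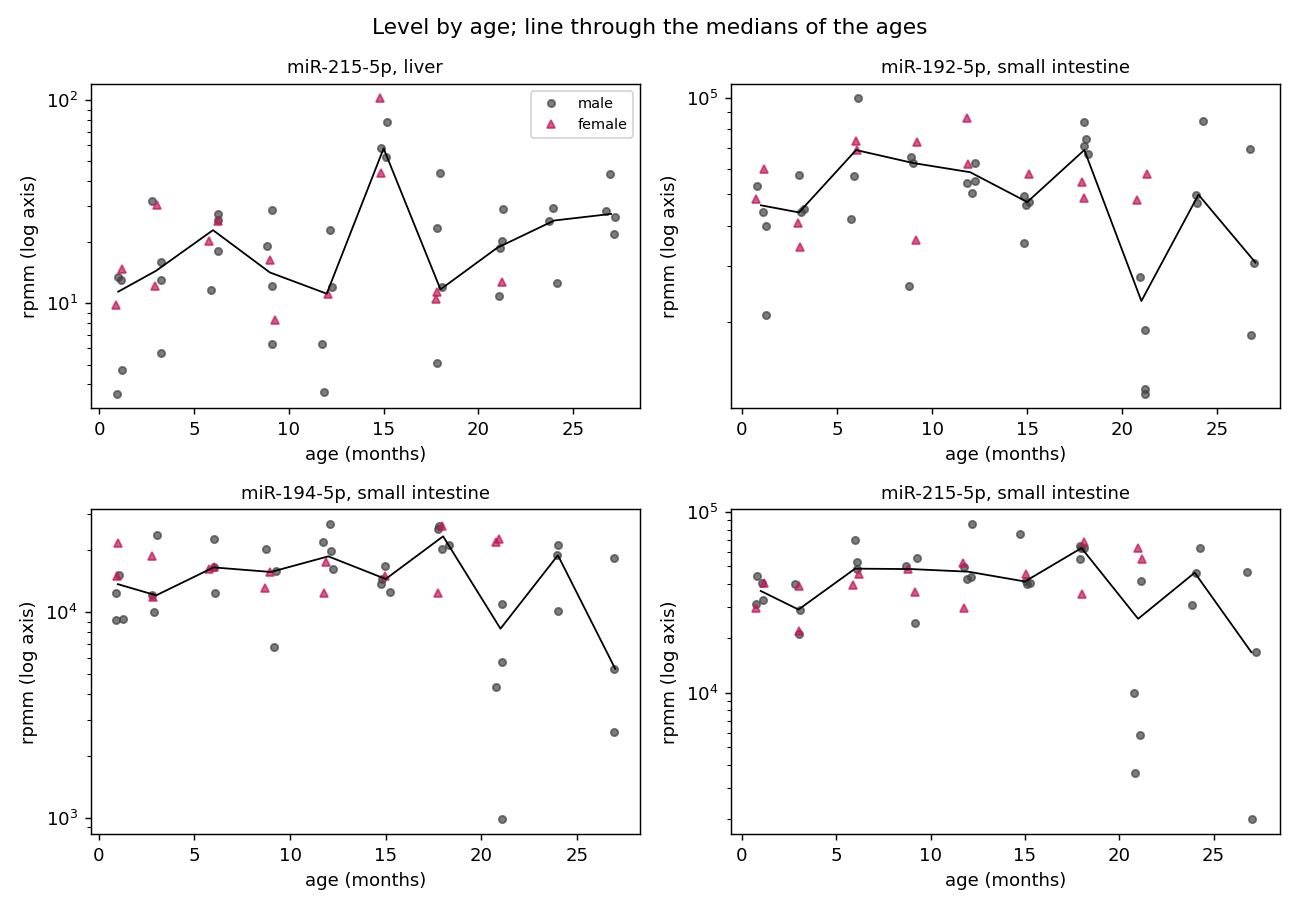
Levels by age in months, in rpmm on a log axis, for miR-215-5p in liver and for miR-192-5p, miR-194-5p and miR-215-5p in small intestine; circles are males, triangles females, and lines join the medians of each age. The 15-month livers (43.8 to 102 rpmm) lie above all 3-month livers (5.73 to 32.1 rpmm), and in small intestine the 21-month males include the lowest libraries of miR-192-5p (11967 rpmm) and miR-194-5p (984 rpmm).

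In small intestine, the members' richest tissue, no age was called, but males and females of 21 months stood apart. miR-192-5p was at 34248, 40623, 43932, 45187 and 57298 rpmm in the 5 libraries of 3 months that were used. A further male library labelled 3 months was not among those used. At 21 months it was at 11967, 12342, 18887 and 27660 rpmm in the 4 males and at 48040 and 57920 rpmm in the 2 females. All 21-month males were below, and the females within or just above, the range of 3 months. For both sexes together the log2 difference was -0.83 (SE 0.33, limma adjusted p = 0.0814).

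miR-194-5p went from 10046, 11883, 12078, 18727 and 23804 rpmm at 3 months to 984, 4310, 5717 and 10919 rpmm in the males of 21 months, while the females had 21947 and 22770 rpmm. miR-215-5p went from 21276, 22120, 28893, 38768 and 40122 rpmm to 3596, 5820, 10006 and 41353 rpmm in the males, with 54694 and 62994 rpmm in the females. The males thus spread widely in both, with 1 male just above the 3-month range for miR-215-5p. The log2 differences over both sexes were -1.02 for miR-194-5p (limma adjusted p = 0.121) and -0.73 for miR-215-5p (adjusted p = 0.322).

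A fit with a change of its own for each sex was chosen after seeing these values. It gave log2 differences in males of -1.54 for miR-192-5p (limma adjusted p = 0.00849), -1.82 for miR-194-5p (adjusted p = 0.0201) and -1.59 for miR-215-5p (adjusted p = 0.0749), against a background of 2.03% of miRNAs called lower in males (11 of 542, among 52 called in either direction). In females they were 0.50, 0.58 and 1.00 (limma adjusted p = 0.660, 0.725 and 0.568). The change in males minus that in females was -2.04 for miR-192-5p, -2.40 for miR-194-5p and -2.60 for miR-215-5p, and none of these passed (limma adjusted p = 0.160, 0.213 and 0.251). The epithelial marker sum was 4250, 10631, 16688 and 24724 rpmm in the 21-month males, 28019 and 40429 rpmm in the females and 21631 to 47805 rpmm at 3 months. It was thus low in most of the same males, and its part in the lower member levels was not tested.

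In kidney the members varied widely at 3 months. miR-194-5p was at 83.6, 168, 829.3, 944 and 1195 rpmm in the 5 libraries of 3 months, and the 2 lowest of these also had the lowest epithelial marker sums, 2654 and 3794 rpmm against 9474 to 18720 rpmm in the others. At 27 months miR-194-5p ran from 1208 to 2056 rpmm (n = 4), above all 3-month kidneys, but its log2 difference of 1.88 did not pass (SE 0.66, limma adjusted p = 0.0613). At 21 months it was also 1.88 (limma adjusted p = 0.0974). All kidney miRNAs together had a median difference of 0.73 at 27 and 0.80 at 21 months. Which member contrasts of kidney were called depended on single libraries of 1, 3 or 15 months, as given under the alternatives.

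The other arms followed with few calls. Of 307 contrasts of the 4 3p arms, 5 were called, against the background of 2.65% of all contrasts. Beside miR-215-3p in liver at 15 months these were miR-192-3p in SCAT at 27 months (1.39, limma adjusted p = 0.0196) and miR-215-3p in heart at 24 months (1.72, adjusted p = 0.00532), in liver at 27 months (0.79, adjusted p = 0.0345) and in small intestine at 21 months (-2.04, adjusted p = 0.00626). The 5p arms of the same precursors had 1.79 for miR-192-5p in SCAT (limma adjusted p = 0.0750) and 1.97 for miR-215-5p in heart (adjusted p = 0.0970). By Spearman correlation with age, 0 of 39 pairs of a 3p arm and a tissue were called. The highest rho was 0.48 for miR-215-3p in liver (permutation p = 0.00029, adjusted over all miRNAs of the tissue 0.00264).

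Males and females did not differ past the threshold in any member. Of 48 pairs of a member and a tissue, none was called by limma with age in the model, against a background of 4.45% (393 of 8838). Only miR-215-5p in SCAT had an unadjusted p under 0.05 (female minus male -1.14, limma adjusted p = 0.130), and edgeR called 0. In the home tissues, for example, female minus male was 0.31 for miR-192-5p in small intestine (limma adjusted p = 0.973) and 0.27 in liver (adjusted p = 0.281).

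The parabiosis cohort was used to compare levels between mice of old and young partners, within the limits on age and strain given above. Over 6 tissues and 4 contrasts, 3 of 72 member contrasts were called by limma, against a background of 4.73% (607 of 12844), 6 had an unadjusted p under 0.05 and edgeR also called 3. All 3 were HA minus HY, where 3 of 18 were called against a background of 9.81% (315 of 3211). None of the 18 contrasts was called in each of HA minus IA, HY minus IY and IA minus IY, where 0, 1 and 1 had an unadjusted p under 0.05 and edgeR called 0. The contrasts share groups and are not independent.

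In kidney, miR-192-5p was lower in HA than in HY mice. HA kidneys had 6751, 7741, 8366, 10096, 13511 and 14160 rpmm (n = 6). HY kidneys ran from 12090 to 19339 rpmm with a median of 14778 (n = 7), IA kidneys from 9387 to 16214 with a median of 10969 (n = 8) and IY kidneys from 12868 to 17844 with a median of 14139 (n = 8). HA and HY overlapped only in the 2 highest HA kidneys. HA minus HY was -0.67 on the log2(rpmm + 1) scale (SE 0.16, limma adjusted p = 0.00238), and 8.94% of kidney miRNAs were called lower in HA.

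The HA kidney was below its own HY partner in 5 of 6 pairs (ratio 0.474 to 1.17), and the HA median was below the HY median in each of the 3 sequencing pools. These pools held 1 to 3 HA and 1 to 4 HY kidneys each, so some medians are single libraries. The other contrasts of miR-192-5p in kidney were -0.23 for HA minus IA (limma adjusted p = 0.443), -0.33 for IA minus IY (adjusted p = 0.174) and 0.10 for HY minus IY. miR-192-3p moved with it, from 102 to 140 rpmm in HY to 72.9 to 104 rpmm in HA (-0.40, limma adjusted p = 0.0268). This was the only called contrast of the other arms among 48, against the background of 4.73% over all contrasts. miR-194-5p in kidney differed by -0.24 (limma adjusted p = 0.351). The epithelial marker sum in kidney overlapped between HA (12957 to 17991 rpmm) and HY (12197 to 17703 rpmm), with 3 of 6 markers higher in HA. The 4 white blood cell markers were all higher in HA (sum 1077 to 2817 against 579 to 1127 rpmm), as were the 3 red blood cell markers (263 to 3600 against 202 to 2216 rpmm), and their part in the result was not tested.

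In heart, where the family is low, miR-194-5p was higher in HA than in HY mice. HA hearts ran from 38.8 to 72.9 rpmm with a median of 54.6 (n = 7) and HY hearts from 26.1 to 49.7 rpmm with a median of 31.1 (n = 7). IA hearts were at 28.6 to 60.8 rpmm (median 41.9, n = 8), and IY hearts at 29.6 to 53.003 rpmm (median 35.8, n = 8). The 3 lowest HA hearts lay below the highest HY heart and above the other HY hearts. HA minus HY was 0.61 (SE 0.16, limma adjusted p = 0.00880) with 11% of heart miRNAs called higher in HA. HA was above its HY partner in 7 of 7 pairs (ratio 1.10 to 2.25) and at the median in each of 4 pools. These pools held 1 to 3 HA and 1 to 4 HY hearts each, the same libraries as the pairs, so some medians are single libraries. HA minus IA was 0.30 (limma adjusted p = 0.230), IA minus IY 0.15 (adjusted p = 0.494) and HY minus IY -0.16 (adjusted p = 0.670). All 6 epithelial markers were also higher in HA hearts, with sums of 272 to 416 rpmm against 169 to 269 rpmm in HY and no overlap, and the squamous epithelial sum was 48.9 to 58.6 against 28.8 to 44.3 rpmm, with 1 of 2 markers higher. The 3 exocrine pancreas markers were also higher in HA (0.257 to 5.87 against 0.224 to 1.504 rpmm), with overlap. The part of these markers in the result was not tested.

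In liver, miR-215-5p was higher in HA than in HY mice, at a low level. HA livers ran from 4.56 to 10.7 rpmm with a median of 6.81 (n = 7, 78 to 162 reads per library) and HY livers from 1.25 to 4.64 rpmm with a median of 2.99 (n = 7, 30 to 94 reads). IA livers had a median of 4.89 rpmm (2.66 to 7.46, n = 8) and IY livers 4.05 rpmm (2.03 to 6.49, n = 8). The lowest HA and the highest HY liver, which were partners, touched, and the remaining HA livers lay above all HY livers. HA minus HY was 0.92 (SE 0.24, limma adjusted p = 0.00926), beside a median of 0.30 over all liver miRNAs and 7.21% called higher in HA.

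HA was above its HY partner in 6 of 7 liver pairs (ratio 0.981 to 6.46) and at the median in each of 3 pools. Each pool held 1 or 3 livers of either group, the same libraries as the pairs. HA minus IA was 0.44 (limma adjusted p = 0.993), IA minus IY 0.14 and HY minus IY -0.34 (adjusted p = 0.561). miR-194-5p and miR-192-5p in liver had HA minus HY of 0.61 (limma adjusted p = 0.220) and 0.24 (adjusted p = 0.564). The 6 epithelial markers were all higher in HA livers (446 to 1458 against 255 to 1129 rpmm), with overlap. So were both endocrine (232 to 762 against 117 to 551 rpmm), both squamous (175 to 406 against 77.4 to 322 rpmm) and the 3 exocrine pancreas markers (0.175 to 0.810 against 0 to 0.214 rpmm), and the part of these markers was not tested.

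**Figure D5:**
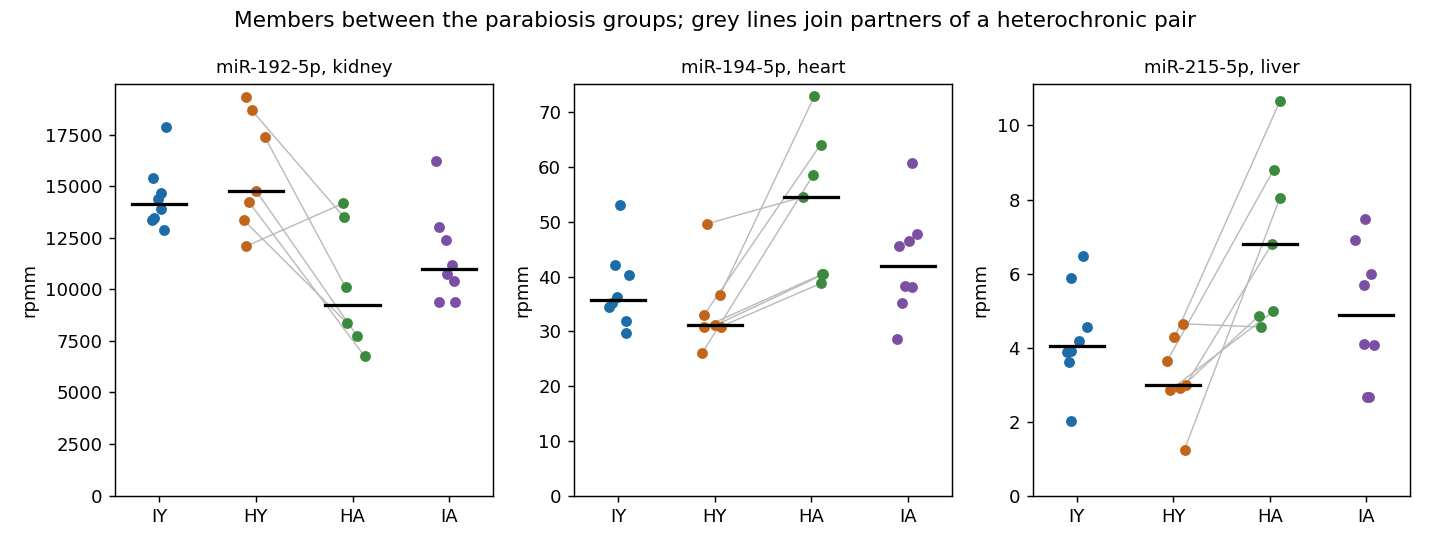
miR-192-5p in kidney, miR-194-5p in heart and miR-215-5p in liver in the 4 parabiosis groups (IY, HY, HA, IA), in rpmm on linear axes from 0; points are mice, black lines medians and grey lines join heterochronic partners. HA is below HY in kidney (medians 9231 and 14778 rpmm) and above it in heart (54.6 and 31.1) and liver (6.81 and 2.99).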

How the data were processed

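Total RNA of frozen tissue was made into small RNA libraries, pooled and sequenced. The authors counted reads per noncoding RNA and deposited reads per 1000000 mapped reads (rpmm) for each library, used here as a signal per RNA. Libraries under 2000000 reads and RNAs of low abundance had been removed by the authors. The values corresponded to whole reads (within 0.05, for values up to 1000 reads) for 99.0% of miRNA values of the aging table and 98.8% of those of the parabiosis table, so reads could be recovered for edgeR. Of the 771 labelled aging libraries, 2 columns could not be matched to a label and were not used.

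Groups came from the sample labels. In the parabiosis cohort the group followed from the pair letter and age, and it matched the deposited annotation for 176 of 176 libraries. Replicates are libraries of separate mice. Intervals and floors cover counting error only.

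Within each tissue, miRNAs with at least 1 rpmm in at least 10% of libraries were tested. Ages were correlated with levels by Spearman's rho with 100000 shuffles of age (two-sided). Other comparisons used limma 3.58.1 in R 4.3.3 on log2(rpmm + 1) over all groups of a tissue. Benjamini-Hochberg adjustment was over all miRNAs within each tissue and contrast, and not over tissues or contrasts. Unadjusted and permutation p-values are named as such in the text. edgeR 4.0.16 (quasi-likelihood test) on recovered reads was an alternative. The pseudocount of 1 rpmm shrinks fold changes of low miRNAs. Python 3.11.15, numpy 2.4.6, pandas 2.3.3, scipy 1.17.1 and matplotlib 3.10.9 were used otherwise. The fits were tested on simulated data. Likeness was Pearson's r over log2(rpmm + 1) tissue medians, among miRNAs with a median of at least 10 rpmm in some tissue.

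Partners in a parabiosis pair share a number in the labels, which names a joined pair of mice. The consensus correlation within pairs was -0.16 in GAT, 0.080 in heart, 0.099 in kidney, 0.20 in limb muscle, 0.24 in liver and -0.28 in MAT.

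The members and lists were chosen with earlier results of these data known. The text names the members, the 4 other arms of their precursors and the 5 miRNAs most like each member. Single libraries, ages and contrasts described besides the called ones were picked after their values were seen. Sequences and positions are from RefSeq. The name of the strain of the HY mice is not reported here.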

Additional observations from a re-analysis of the deposited data

Results flagged for a closer look

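Dixon's criterion was run on groups of 4 to 10 libraries in aging liver and small intestine, and in parabiosis kidney, heart, liver and MAT. It found 1 library far from the others in 7 of 36 groups. Chance meets the criterion in about 5% of independent groups (about 1 in 20). Groups of different members share libraries, so the count cannot be read against that share. All 7 were in parabiosis MAT and came from 3 libraries, of which 1B was also nearer to GAT in its miRNA profile. The HA library 2A had 2758 rpmm of miR-192-5p (next highest 986), 1677 rpmm of miR-194-5p (next 324) and 4270 rpmm of miR-215-5p (next 642, n = 6). The HY library 1B had 2636 rpmm of miR-192-5p (next 651), 543 rpmm of miR-194-5p (next 167) and 964 rpmm of miR-215-5p (next 340, n = 6). The IY library 10B had 5329 rpmm of miR-192-5p (next 1053, n = 8). The 6 epithelial markers summed to 2545 rpmm in 2A, 1729 rpmm in 1B and 5218 rpmm in 10B, against a median of 2545 rpmm over the parabiosis MAT libraries.

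The change of miR-192-5p in small intestine from 3 to 21 months differed between the sexes at an unadjusted limma p of 0.00148 for the difference itself, -2.04 on the log2 scale for males minus females (adjusted p = 0.160). All 4 males of 21 months lay below all 3-month libraries that were used, while the 2 females did not. This fit was chosen after the values were seen.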

How the results depend on the processing

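Of 62 alternatives run for the 4 called contrasts, 61 kept direction and side of the threshold, and none changed sign. The exception was miR-215-5p in liver at 15 months scaled to miRNA reads (1.58). Leaving out each library in turn gave 1.70 to 2.16 there, -0.78 to -0.57 for miR-192-5p in kidney, 0.53 to 0.70 for miR-194-5p in heart and 0.77 to 0.99 for miR-215-5p in liver (HA minus HY). With the pair as a replicate block the last 3 were -0.67, 0.61 and 0.92, all called, and the block changed no call (3 of 72). With sequencing pool as a covariate, chosen after seeing the data, 3 remained called, and without pairs 19 and 20 also 3.

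The count of age correlations (0) became 1, miR-215-5p in limb muscle, when called by adjusted p, in males only or with plate means removed, and stayed at 0 without any 1 library. The count of ages against 3 months (1) became 3 with edgeR, 5 in males only, 4 with median-ratio scaling, 2 with miRNA-read scaling, 5 with plate, 4 with title-number set, 3 with sex and 4 with small intestine pool count (added) as covariate, 3 with a pseudocount of 10 and 2 without the libraries closest to another tissue. The cause was not tested. Without single libraries it ran from 1 to 4: 4 without kidney 23 or 47, 3 without kidney 09 or small intestine 02 or 37, and 2 without kidney 07 or 32, liver 08 or SCAT 14, 16, 43 or 50. The count between the sexes (0) became 1 with plate as a covariate (miR-215-5p in GAT, -1.28) and stayed at 0 without any 1 library. The parabiosis count (3) ran from 3 to 4 without single libraries, 4 without heart IY 15B. Brown adipose tissue had too few 3-month libraries to be fitted, the sex fits with plate or set gave 45 of 48 values, and a filter at a mean of 10 rpmm left 60 of 72 parabiosis contrasts. Of 132 alternative median levels, 47 moved by over 1 SD. All were among the 66 scaled to miRNA reads, a scaling that also changes the unit. Low levels limit miR-215-5p outside small intestine, often under 100 reads.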
